A study of Mus musculus with 6 samples.

Results

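The clustered protocadherins are cell-surface adhesion proteins of the cadherin superfamily, encoded by 3 adjacent gene families, alpha, beta and gamma, on mouse chromosome 18. Members were taken as all genes whose symbol in the files starts with Pcdha, Pcdhb or Pcdhg and that had an FPKM (fragments scaled to exon length and to the number of mapped fragments) above 0 in at least 1 library. This gave 59 of the 25576 genes listed, with 14 alpha, 22 beta and 23 gamma members. All 59 were above 0 in each of the 6 libraries.

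Bulk-seq was performed on whole spinal cord of FVB mice of the Taiwanese spinal muscular atrophy (SMA) line at postnatal day 4. There were 3 libraries labelled SMA and 3 labelled control, to compare gene expression in this severe mouse model with that of its carriers. The SMA mice (mSmn-/-, hSMN22tg/0) lack mouse Smn and carry a human SMN2 transgene. The controls (mSmn+/-, hSMN22tg/0) are heterozygous for the knockout and carry the same transgene, so that both groups have human SMN2 and neither is wild type. By the methods, the triplicate libraries stand for n = 1 per group, and p-values may therefore measure only the technical spread between libraries. Depth in reads is unknown because FPKM holds no counts.

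Each alpha and gamma gene splices its own variable exon to constant exons that its whole family shares, so that members differ in their extracellular domains and share a cytoplasmic end. Beta genes are made of their own exon alone and have no constant region. A neuron transcribes only some of the variable exons, through a choice of promoters that depends on looping by CTCF and cohesin, whereas the C-type exons at the ends of the alpha and gamma families are regulated differently and several of them are broadly used. The proteins bind their own kind on facing membranes, and this recognition serves self-avoidance of dendrites and tiling of axons. In the spinal cord, the gamma family is known for its part in interneuron survival, for which Pcdhgc4 is the required isoform.

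In the files all 59 members carry the same locus, chromosome 18 from 36930184 to 37841873 (912 kb, mm10), together with 21 other genes. Positions of the individual members were therefore taken from GENCODE M21 on the same build, which held 58 of the 59 identifiers, all on the plus strand. Exon bases shared with other members made up 38.0 to 54.9% of each alpha member and 27.8 to 66.8% of each gamma member with a position. Among beta members only Pcdhb21 and Pcdhb22 shared any, 455 bases where their ends overlap. FPKM of an alpha or gamma member thus rests on a division of common reads between members, and closely similar variable and beta exons can be confused too, so that values of single members are uncertain to an extent that gene-level FPKM does not show. Of the 8 genes in the span with the biotype antisense in GENCODE M21, 1 averaged 0.5 FPKM or more (BC037039, 0.822 FPKM), and the processed transcript Gm26672 on the minus strand averaged 1.21 FPKM. The libraries were strand-specific.

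The 59 identifiers had 56 distinct symbols, because 3 symbols were each given to 2 identifiers. One of the pair called Pcdhga8 (ENSMUSG00000023036) is Pcdhgc4 in GENCODE M21 and in RefSeq and is called Pcdhgc4 here. One of the pair called Pcdha11 (ENSMUSG00000007440) starts where RefSeq places Pcdha10, and both are given with their identifiers. The 2 identifiers called Pcdhgb8 moved apart between libraries. ENSMUSG00000103081 had 2.71, 1.76 and 0.863 FPKM in control replicates 1, 2 and 3 and 1.88, 1.68 and 3.12 FPKM in SMA replicates 1, 2 and 3, while ENSMUSG00000109483, which M21 does not hold, was listed at 2.52, 3.35 and 6.05 FPKM and at 6.20, 4.87 and 3.97 FPKM in the same order. Their sum was 5.23, 5.12 and 6.91 FPKM in control and 8.08, 6.55 and 7.08 FPKM in SMA, and the groups overlapped for each identifier and for the sum.

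Values per library are given in the order of replicates 1, 2 and 3 of each label. Smn1, the targeted gene, was at 10.4, 8.64 and 11.9 FPKM in the controls and at 8.48, 9.30 and 11.1 FPKM in SMA. These ranges overlapped (log2 fold change -0.09, SE 0.15, and -0.20, SE 0.12, without control replicate 2), and in neither case did the groups separate, so Smn1 gives no check of the labels, and every direction named here rests on them. Spinal cord markers were abundant in all libraries, with the 12 neuron markers summing to 2992, 2300 and 3405 FPKM in control and to 3262, 3355 and 3468 FPKM in SMA.

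Control replicate 2 stood apart from the other libraries. Across the genes tested its log2(FPKM + 1) correlated with the other libraries at Pearson's r of 0.836 to 0.849, where the lowest value among the other 5 was 0.983 (across genes, which are not independent replicates). The 12 hepatocyte markers summed to 26419 FPKM in control replicate 2 and to 74.9 and 50.5 FPKM in control replicates 1 and 3, with 44.1, 94.8 and 50.7 FPKM in SMA. Alb was the most abundant of them, at 15895 FPKM in control replicate 2, and only Tat was at 0 in any library (control replicate 1). The 8 erythroid markers, led by Hbb-bs, summed to 18835 FPKM in control replicate 2 and to between 1115 and 1861 FPKM elsewhere.

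Clustered protocadherins were low in this same library. Of the 59 members, 53 had their lowest FPKM in control replicate 2, while 44.9% of all genes tested did. The median ratio of control replicate 2 to the mean of the other 5 libraries was 0.655 over the members, with 0.584 for alpha, 0.691 for beta and 0.657 for gamma. It was 0.570 over the neuron markers, 0.768 over the astrocyte markers and 0.879 over the oligodendrocyte lineage markers. For the microglia markers it was 1.70, and for the vascular and fibroblast markers 1.76. Over all 25576 genes listed, with no minimum FPKM, it was 0.854. The part of hepatocyte and erythroid RNA in these lower values was not tested, and the comparison of SMA with control is therefore given with and without control replicate 2. In bulk tissue, fewer cells of a type and less RNA per cell cannot be told apart.

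**Figure D1:**
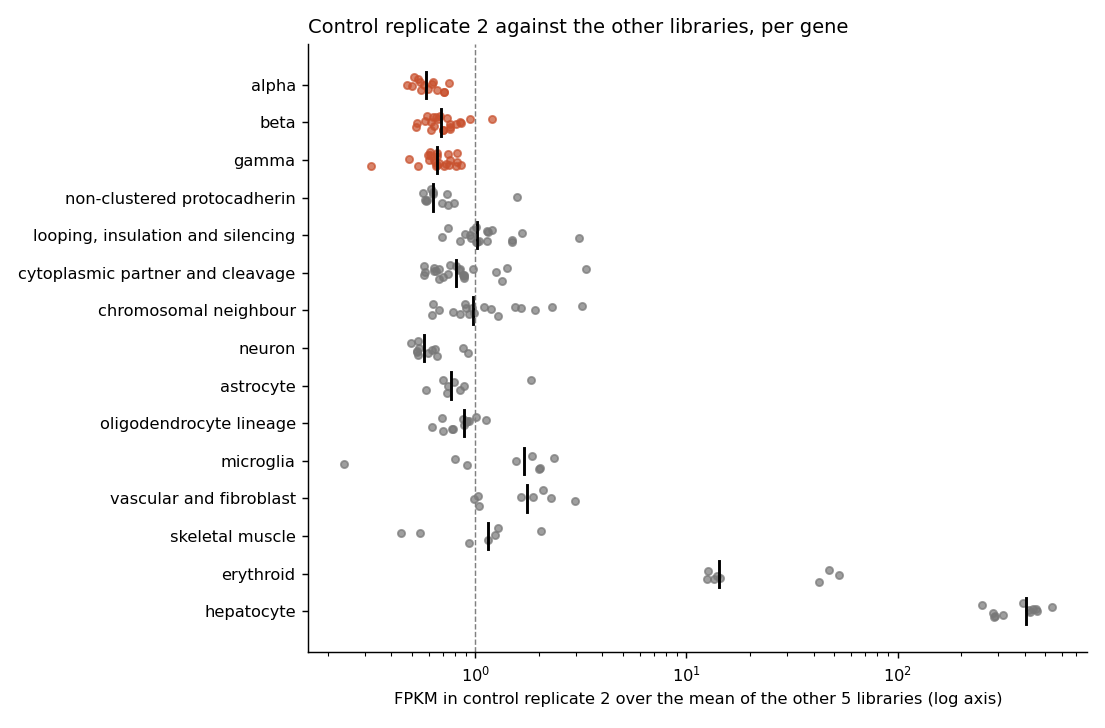
FPKM in control replicate 2 divided by the mean of the other 5 libraries, 1 point per gene on a log axis, with a black line at each list's median. Clustered protocadherins (red) have medians of 0.584 to 0.691, between the neuron (0.570) and astrocyte (0.768) markers, while hepatocyte markers have a median of 405.

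The C-type gamma members were the most abundant of the family by mean. Pcdhgc3 (ENSMUSG00000102918, 37806364 to 37841873) was listed at 48.4, 36.5 and 44.0 FPKM in the controls and at 47.5, 41.5 and 41.6 FPKM in SMA. Means were 43.0 ± 6.03 FPKM in control and 43.5 ± 3.43 FPKM in SMA (SD, n = 3 each), and the groups overlapped. Pcdhgc4 (37815079 to 37841873), the isoform required for neuron survival, was listed at 45.3, 21.2 and 35.4 FPKM in the controls and at 42.9, 35.3 and 39.4 FPKM in SMA. Pcdhgc5 (ENSMUSG00000102543, 37819513 to 37841873) was listed at 17.3, 5.24 and 16.3 FPKM in the controls and at 15.5, 13.4 and 19.5 FPKM in SMA. Both overlapped between the labels. Within every library Pcdhgc3 was the highest of these, Pcdhgc4 the next and Pcdhgc5 the lowest.

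These 3 members took 27.6, 23.9 and 24.2% of the summed FPKM of all members in the controls and 25.4, 22.6 and 23.2% in SMA. The drop in control replicate 2 was unequal among them. Pcdhgc3 was there at 0.818 of its mean in the other 5 libraries, Pcdhgc4 at 0.533 and Pcdhgc5 at 0.319, the lowest ratio of any member. As a share of the gamma sum, Pcdhgc3 was 25.4% in control replicate 2 and 18.7 to 21.8% in the other libraries, whereas Pcdhgc5 was 3.64% there and 6.38 to 8.78% in the others. Log2 fold changes of SMA against control were 0.02 for Pcdhgc3 (SE 0.13), 0.26 for Pcdhgc4 (SE 0.26) and 0.44 for Pcdhgc5 (SE 0.42). Without control replicate 2 they turned to -0.09 (SE 0.08), -0.03 (SE 0.12) and -0.07 (SE 0.14), so all 3 signs turned when that library was left out. For Pcdhgc3 the sign also turned with that library kept, under some scalings and without SMA replicate 1 (-0.038).

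Of the C-type alpha members, Pcdhac2 (ENSMUSG00000102697, 37143503 to 37187657), known for the tiling of serotonergic axons, was listed at 13.7, 7.67 and 13.1 FPKM in the controls and at 13.9, 14.2 and 14.8 FPKM in SMA. All libraries labelled SMA were above all labelled control, by a small margin over control replicate 1 (log2 fold change 0.33, SE 0.21, and 0.09, SE 0.08, without control replicate 2). Pcdhac1 (ENSMUSG00000103255) was listed at 4.45, 2.78 and 4.06 FPKM in the controls and at 4.65, 4.59 and 4.30 FPKM in SMA. It lay below Pcdhac2 in each library, and its groups overlapped.

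Most members were listed at low FPKM. Only 5 of the 59 members averaged 10 FPKM or more, namely Pcdhgc3, Pcdhgc4, Pcdhgc5, Pcdhac2 and the gamma B member Pcdhgb6, and only 3 had a mean under 1 FPKM, the beta members Pcdhb1, Pcdhb8 and Pcdhb9. Means of the 12 variable alpha members ran from 1.55 FPKM (Pcdha1) to 9.59 FPKM (Pcdha4) with a median of 5.88. They ran from 3.20 to 9.18 FPKM in gamma A (median 5.98), from 2.00 to 11.05 FPKM in gamma B (median 4.95) and from 0.404 to 8.56 FPKM in beta (median 3.74). Pcdhb1 was the lowest member and was left out of the test by the minimum mean of 0.5 FPKM. Mean FPKM increased with the order along the chromosome in beta (Spearman's rho 0.607 over 22 members) and gamma (0.652 over the 22 members with a position), less so in alpha (0.341 over 14), as a description of genes that share libraries and exons.

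The leading variable members differed in how the labels stood to each other. Pcdha4 was listed at 10.2, 7.17 and 9.43 FPKM in the controls and at 8.95, 9.80 and 11.98 FPKM in SMA. Pcdha11 (ENSMUSG00000102206) was listed at 9.07, 5.49 and 8.51 FPKM in the controls and at 9.31, 8.93 and 10.3 FPKM in SMA. Both alpha members overlapped between the labels and were lowest in control replicate 2. In the beta family, Pcdhb17 was listed at 9.34, 4.90 and 9.40 FPKM in the controls and at 8.33, 9.35 and 10.1 FPKM in SMA. Its groups overlapped, and its log2 fold change of 0.25 (SE 0.23) became -0.02 (SE 0.10) without control replicate 2. Pcdhb16 was listed at 7.45, 4.82 and 7.39 FPKM in the controls and at 7.87, 8.17 and 8.26 FPKM in SMA, with all SMA libraries above all control libraries. Pcdhb19 was listed at 6.24, 4.85 and 5.77 FPKM in the controls and at 6.48, 6.20 and 7.26 FPKM in SMA, where SMA replicate 2 fell just under control replicate 1.

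In gamma A, Pcdhga11 was listed at 7.86, 6.003 and 10.51 FPKM in the controls and at 10.13, 10.13 and 10.47 FPKM in SMA. Control replicate 3 was just above every SMA library and the other controls were below them, so the groups overlapped. Pcdhga10 was listed at 8.61, 5.64 and 7.41 FPKM in the controls and at 8.69, 8.79 and 8.63 FPKM in SMA. Here the 3 SMA libraries agreed closely and lay just above control replicate 1. Pcdhga9 was listed at 6.46, 5.34 and 7.72 FPKM in the controls and at 7.59, 7.36 and 6.86 FPKM in SMA. The groups of Pcdhga9 overlapped. In gamma B, Pcdhgb6 was listed at 12.1, 7.70 and 12.4 FPKM in the controls and at 11.8, 10.9 and 11.6 FPKM in SMA. Its SMA values lay between control replicate 2 and the other control libraries. Pcdhgb5 was listed at 7.86, 5.96 and 8.58 FPKM in the controls and at 8.20, 8.04 and 8.38 FPKM in SMA, and Pcdhgb7 at 4.51, 4.34 and 6.07 FPKM in the controls and at 6.52, 6.25 and 5.63 FPKM in SMA. Both overlapped between the labels.

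**Figure D2:**
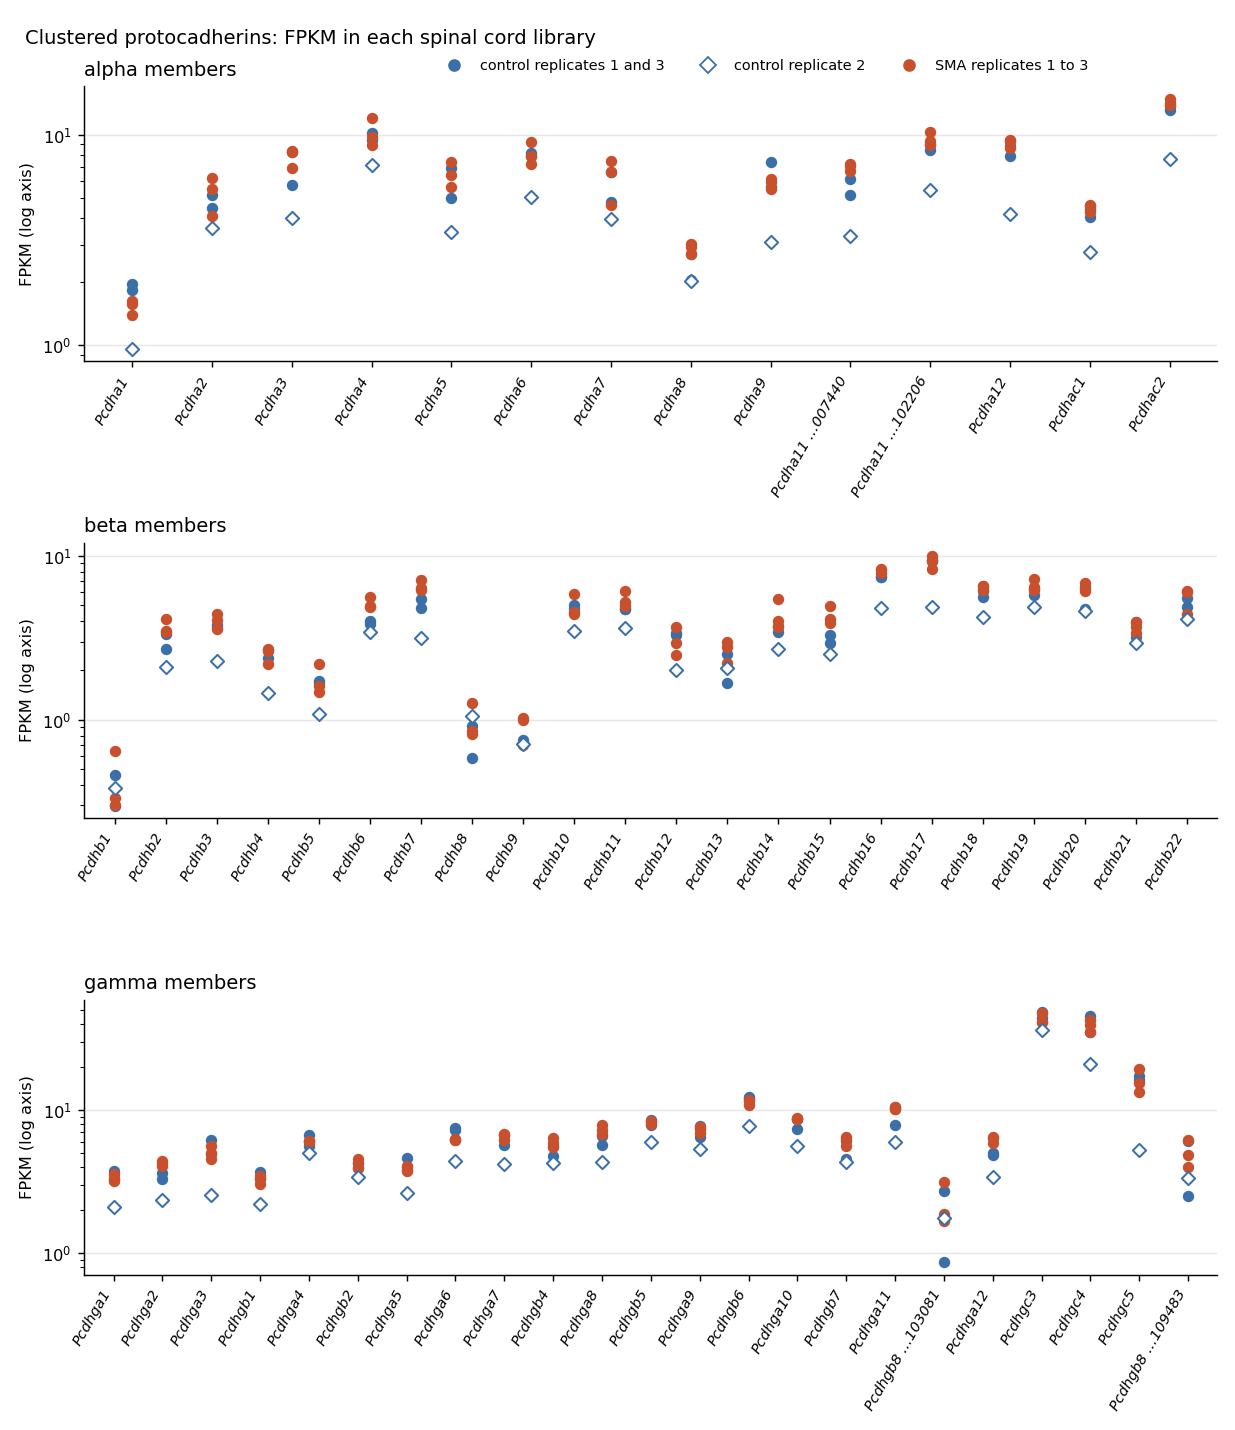
FPKM (log axis) of each of the 59 members in the 6 libraries, in order along the chromosome within alpha, beta and gamma, except that the Pcdhgb8 identifier with no position stands last. Control replicate 2 (open diamonds) is the lowest library for 53 members, and Pcdhgc3 and Pcdhgc4 stand above the other gamma members in each library, Pcdhgc5 in each but control replicate 2.

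The pattern of which members were high was much alike in all libraries. Over the 59 members, Spearman's rho between pairs of libraries was 0.919 to 0.964 among the 5 libraries other than control replicate 2 and 0.912 to 0.937 between those and control replicate 2. In that library 16 members took a larger and 11 a smaller share of the summed member FPKM than in any of the other 5 libraries. Those with the larger share included Pcdhgc3 and 8 beta members, Pcdhb8, Pcdhb9, Pcdhb13 and Pcdhb18 to Pcdhb22, and those with the smaller share included Pcdhgc4, Pcdhgc5, Pcdhac2 and Pcdha12. Members varied among the SMA libraries about as other genes did, with a median coefficient of variation of 7.91% against 8.04% over all genes tested.

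Summed over the family, alpha FPKM was 93.1, 56.8 and 92.4 in the controls and 98.6, 93.1 and 105 in SMA. For alpha the libraries overlapped, SMA replicate 2 being at 93.06 and control replicate 1 at 93.12. Beta FPKM was 88.0, 62.5 and 85.4 in control and 89.5, 95.1 and 106 in SMA. All beta sums of SMA were above all of control. Gamma FPKM was 222, 144 and 218 in control and 229, 210 and 222 in SMA, and these overlapped. The ratio of group means, SMA over control, was 1.23 for alpha, 1.23 for beta and 1.13 for gamma, and without control replicate 2 it was 1.07, 1.12 and 1.00, with the direction for gamma turning relative to the neuron markers.

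The families were also set against the neuron markers. Per 100 FPKM of neuron markers, alpha members had 2.76 ± 0.325 FPKM in control and 2.95 ± 0.149 FPKM in SMA, and beta members 2.72 ± 0.218 and 2.88 ± 0.158 FPKM (SD, n = 3 each). For gamma the direction turned on this scale, with 6.68 ± 0.629 FPKM in control and 6.57 ± 0.398 FPKM in SMA. Without control replicate 2 the control means were 2.91 for alpha, 2.72 for beta and 6.90 for gamma, which brought alpha closer to SMA and took gamma farther from it. This scale rests in large part on the noncoding Meg3 and Snhg11, which held 51.5% of the neuron marker sum in control replicate 2 and 33.8 to 43.2% in the other libraries. Per 100 FPKM of the 10 coding neuron markers, control replicate 2 was the highest library for beta (5.602 FPKM) and gamma (12.9 FPKM). On that scale the means in control and SMA were 4.86 and 4.93 FPKM for alpha, 4.82 and 4.81 for beta and 11.8 and 10.99 for gamma, and the control means without control replicate 2 were 4.74, 4.43 and 11.2. Whether control replicate 2 was low or high in protocadherins per neuron RNA thus depended on the markers used. With control replicate 2 kept, the labels overlapped on both scales in all 3 families. For gamma with all 12 markers, control replicate 1 was at 7.41 and control replicates 2 and 3 at 6.25 and 6.40. Without control replicate 2, all SMA libraries were above control for beta with the coding markers. They were at 4.69, 4.61 and 5.13 FPKM, against 4.445 and 4.412 FPKM in control replicates 1 and 3. Alpha and gamma still overlapped, as did all families with the 12 markers. The make-up of the module was steady, with alpha at 21.6 to 24.3%, beta at 21.5 to 24.4% and gamma at 51.3 to 55.1% of the summed member FPKM over the 6 libraries.

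**Figure D3:**
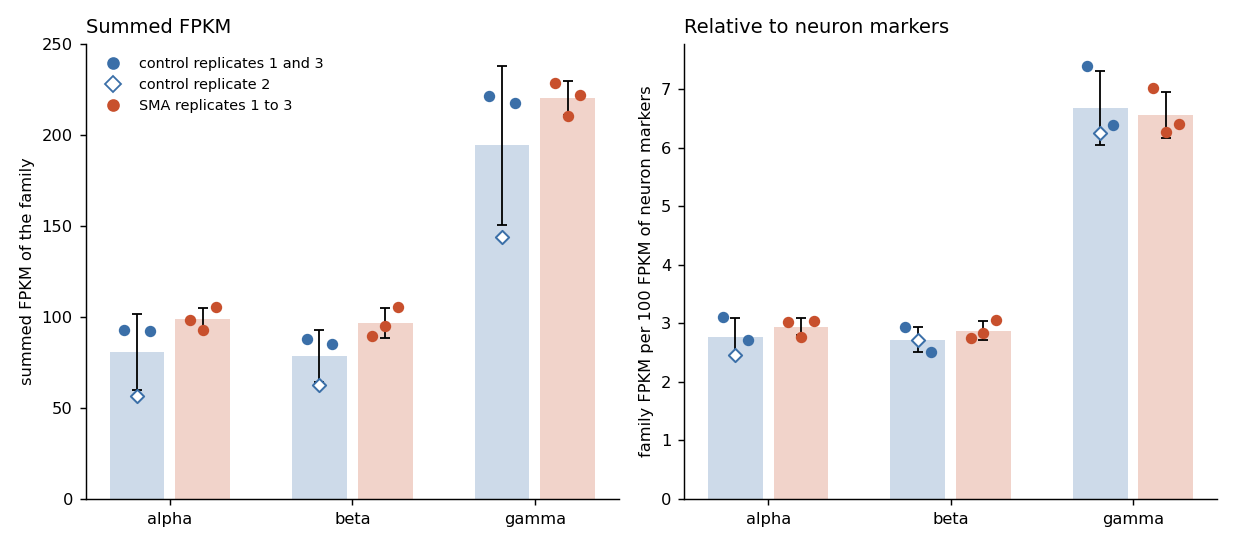
Left, summed FPKM of the alpha, beta and gamma members, and right, the same per 100 FPKM of the 12 neuron markers, with points for single libraries, bars for group means and whiskers for the SD (n = 3). On the left control replicate 2 (open diamonds) is lowest in each family, and on the right the libraries labelled SMA and control overlap in each family, with the gamma mean of SMA slightly below that of control.

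For the comparison of SMA with control, log2(FPKM + 1) was fitted with limma over all genes averaging 0.5 FPKM or more, which left 58 of the 59 members. At an unadjusted p under 0.05, 7 members were higher and 0 lower in SMA, where 3.4% of the 17088 genes tested were higher and 2.39% lower. At an adjusted p under 0.05 there were 0 members, and 0 of all genes tested (0.0%). The smallest adjusted p of any member was 0.683. The median log2 fold change was 0.24 over the members, with 57 of 58 above 0, and 0.04 over all genes tested, of which 58% were above 0. All fold changes are on the log2(FPKM + 1) scale, which understates changes of low genes.

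The SMA libraries lay all above the control libraries for 14 members and all below for 0, where this held for 10.3 and 6.67% of all genes tested. These 14 were 3 alpha members (Pcdha8, Pcdhac2 and ENSMUSG00000007440 of the Pcdha11 pair), 7 beta members (Pcdhb2, Pcdhb6, Pcdhb7, Pcdhb11, Pcdhb15, Pcdhb16 and Pcdhb18) and 4 gamma A members (Pcdhga2, Pcdhga8, Pcdhga10 and Pcdhga12). No gamma B or gamma C member was among them. Of the 12 neuron markers, 4 had all SMA libraries above all control libraries and 0 had them below, and 12 had log2 fold changes above 0. Without control replicate 2, 4 neuron markers were all above and 1 all below, and 9 had log2 fold changes above 0. The exact permutation test of a single gene (two-sided) cannot give a p below 0.1 here, neither with 3 nor with 2 controls.

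Without control replicate 2 the members stood closer to all genes. Among 16574 genes tested, 5 members were higher and 0 lower at an unadjusted p under 0.05 (5.27 and 5.2% of all genes), all 5 of them among the 7 named next. At an adjusted p under 0.05, 0 members and 2 of all genes (0.0121%) passed, the smallest adjusted p of a member being 0.422 from limma. The same 14 members had all SMA libraries above the remaining control libraries (14.2% of all genes), and 3 had them all below (13.9%). Leaving out a library cannot undo a separation of the labels, so these 14 had to stay. No further member joined them, while the share of all genes was 10.3% over 6 libraries and 14.2% without control replicate 2. The median log2 fold change of members was 0.10, with 42 of 58 above 0, against 0.00163 over all genes, of which 50.4% were above 0. The share of members higher in SMA was thus 5 of 58 against 5.27% of all genes.

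The members higher at an unadjusted p under 0.05 were 1 alpha, 3 beta and 3 gamma A members. Pcdhb6 (ENSMUSG00000051678, 37333921 to 37337674) was listed at 3.98, 3.41 and 3.81 FPKM in the controls and at 4.98, 4.85 and 5.64 FPKM in SMA. Its groups were clearly separate and control replicate 2 was close to the other controls. The log2 fold change was 0.38 (SE 0.11, limma p = 0.0130 and exact permutation p = 0.1) and 0.33 without control replicate 2 (SE 0.12, limma p = 0.0241). Pcdhb15 (ENSMUSG00000047033, 37473540 to 37476340) was listed at 2.95, 2.51 and 3.30 FPKM in the controls and at 4.11, 3.90 and 4.93 FPKM in SMA, again without overlap. Its log2 fold change was 0.44 (SE 0.14, limma p = 0.0154 and exact permutation p = 0.1) and 0.36 without control replicate 2 (SE 0.13, limma p = 0.0289). Pcdhb7 (ENSMUSG00000045062, 37341702 to 37345202), next to Pcdhb6, was listed at 5.47, 3.14 and 4.82 FPKM in the controls and at 6.19, 7.09 and 6.41 FPKM in SMA. Control replicate 2 was well below the other controls here, and the log2 fold change of 0.49 (SE 0.18, limma p = 0.0316 and exact permutation p = 0.1) was 0.30 without it (SE 0.11, limma p = 0.0293). All 3 beta genes lack shared exons in the annotation.

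Pcdhga12 (ENSMUSG00000102428, 37765580 to 37841873) was listed at 4.85, 3.41 and 5.03 FPKM in the controls and at 6.48, 5.84 and 6.34 FPKM in SMA. The groups did not overlap, and the log2 fold change was 0.42 (SE 0.15, limma p = 0.0255 and exact permutation p = 0.1) and 0.28 without control replicate 2 (SE 0.10, limma p = 0.0296). Pcdhga2 (ENSMUSG00000103332) was listed at 3.61, 2.37 and 3.29 FPKM in the controls and at 4.26, 4.03 and 4.38 FPKM in SMA. Pcdhga8 (ENSMUSG00000103897) was listed at 5.71, 4.36 and 6.54 FPKM in the controls and at 6.85, 7.84 and 7.25 FPKM in SMA. Neither overlapped between the labels (exact permutation p = 0.1 each), but both lost the threshold without control replicate 2, with log2 fold changes from 0.37 (SE 0.15) to 0.23 for Pcdhga2 (limma p = 0.0827) and from 0.36 (SE 0.15) to 0.22 for Pcdhga8 (limma p = 0.0766). The alpha member ENSMUSG00000007440 of the Pcdha11 pair was listed at 6.17, 3.32 and 5.19 FPKM in the controls and at 7.24, 6.70 and 7.12 FPKM in SMA. SMA values were all higher, with a log2 fold change of 0.47 (SE 0.19, limma p = 0.0448 and exact permutation p = 0.1) and of 0.27 without control replicate 2 (SE 0.11, limma p = 0.0433).

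**Figure D4:**
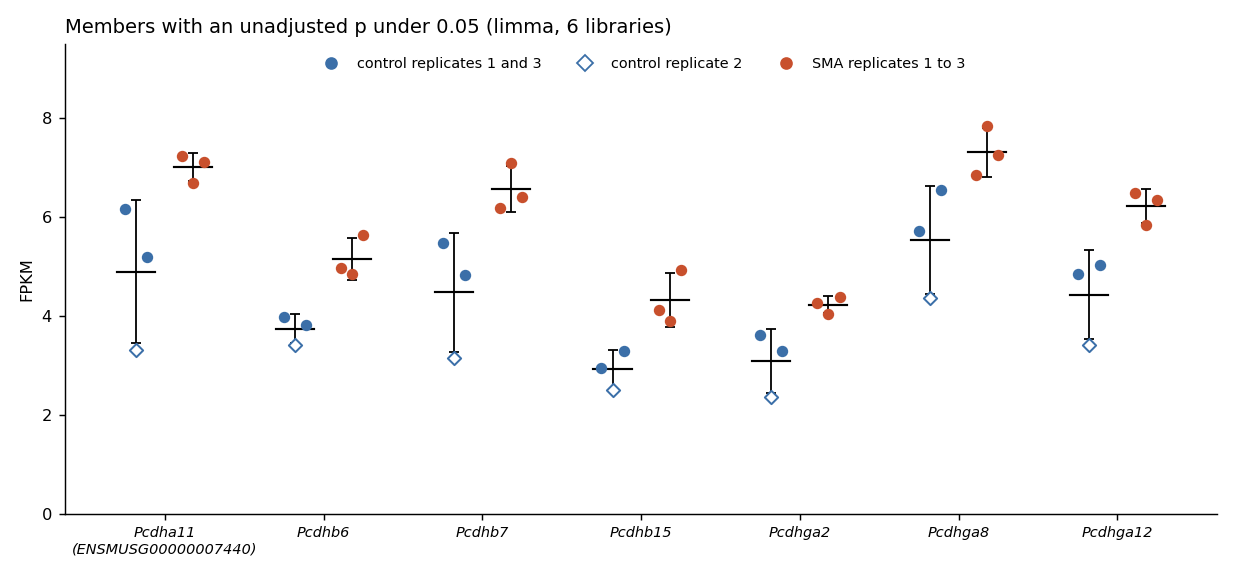
FPKM of the 7 members with an unadjusted p under 0.05 in each library, with group means as horizontal lines and whiskers for the SD (n = 3). All SMA points lie above all control points for each gene, and control replicate 2 (open diamonds) is the lowest control.

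Each of the 7 lost the threshold under some alternatives while its log2 fold change stayed above 0. Scaled to the neuron markers, 0 members were higher at an unadjusted p under 0.05, and 0.495% of all genes. Without SMA replicate 3 there were likewise 0 members (1.25% of all genes), although log2 fold changes were still 0.32 for Pcdhb6, 0.36 for Pcdhb15, 0.50 for Pcdhb7 and 0.41 for Pcdhga12, and without control replicate 3 there were 12 (6.07%), so the counts of members and of all genes went up and down with the setting. Of 17 alternatives, Pcdhb6 and Pcdhb15 passed that threshold in 15 each, Pcdhga12 in 13, Pcdhb7 in 11, the Pcdha11 identifier in 9, and Pcdhga2 and Pcdhga8 in 6 each. Scaling to the neuron markers moved the median of all genes to -0.15 and that of the members to 0.05. This scaling multiplies all genes of a library alike. Relative to all genes, the members' median was 0.198 higher as deposited and 0.096 higher without control replicate 2.

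The 3 members with all SMA libraries below control replicates 1 and 3 were Pcdha1, Pcdhga6 and Pcdhgb6, of which Pcdha1 and Pcdhga6 are named after the values were seen. Pcdhga6 was listed at 7.23, 4.38 and 7.45 FPKM in the controls and at 6.32, 6.19 and 6.15 FPKM in SMA. Leaving out control replicate 2 gave a log2 fold change of -0.21 (SE 0.09, limma p = 0.0598 and exact permutation p = 0.1), and over all libraries 0.0019 (SE 0.19). Pcdha1 was listed at 1.83, 0.958 and 1.94 FPKM in the controls and at 1.56, 1.39 and 1.63 FPKM in SMA. Both lay between control replicate 2 and the other controls.

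**Figure D5:**
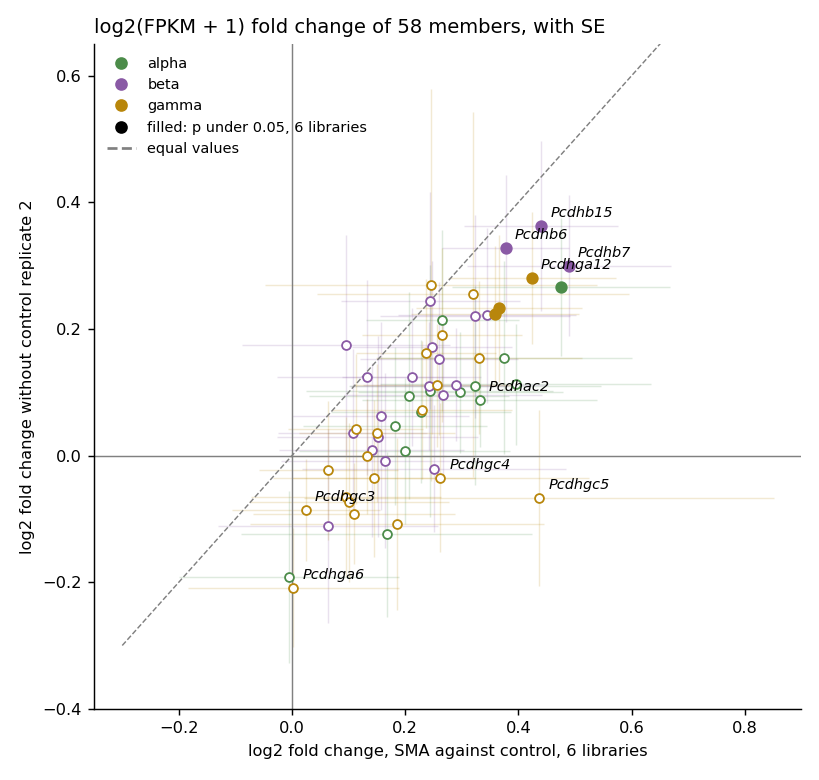
Log2 fold change of SMA against control for the 58 members tested, over 6 libraries (horizontal) and without control replicate 2 (vertical), with SE as faint lines, the dashed line for equal values and 5 libraries common to both axes. Filled points have an unadjusted p under 0.05 over 6 libraries; most points lie under the dashed line, and 42 of 58 are above 0 on the vertical axis (50.4% of all genes) against 57 on the horizontal (58% of all genes).

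Genes that act with or near the clustered protocadherins were counted in the same way. Of the 12 non-clustered protocadherins, adhesion proteins encoded elsewhere in the genome, 0 had an unadjusted p under 0.05 in either direction over 6 libraries from limma. Their median log2 fold change was 0.22 over 6 libraries and 0.02 without control replicate 2. In the latter comparison 1 of the 12, Pcdh8, was higher, against 5.27% of all genes (named after its values were seen). Pcdh8 was listed at 16.3, 10.2 and 15.8 FPKM in the controls and at 18.4, 18.7 and 18.2 FPKM in SMA, with no overlap. The most abundant were Pcdh7, Pcdh9 and Pcdh10. Pcdh7 was listed at 92.9, 66.3 and 80.9 FPKM in the controls and at 94.6, 88.5 and 93.1 FPKM in SMA, above any clustered member in every library. As in the clustered families, 11 of the 12 were lowest in control replicate 2, at a median of 0.628 of the other libraries.

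Of the 19 genes for looping, insulation and silencing of the locus, 0 had an unadjusted p under 0.05 in either direction. This held both with 6 libraries and without control replicate 2, with median log2 fold changes of 0.01 and -0.01. Over 6 libraries, SMA was all below control for 2 genes, Ctcf and Stag1, and all above for 2, Mau2 and Atf7ip (6.67 and 10.3% of all genes). They are named after their values were seen. Dnmt3a, a DNA methyltransferase, was the most abundant, at 68.1, 46.5 and 69.1 FPKM in control and 62.2, 66.8 and 68.8 FPKM in SMA. The cohesin-associated Pds5a and Pds5b followed, with Pds5a at 38.0, 40.9 and 34.9 FPKM in the controls and at 36.6, 36.5 and 35.3 FPKM in SMA. Both overlapped between the labels. The median ratio of control replicate 2 to the other libraries was 1.02 over the list, whose genes went both ways, with Dnmt3a at 0.693 and Pds5b at 0.738, Pds5a at 1.13 and Stag2 at 1.49.

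Of the 23 cytoplasmic partners and cleavage enzymes, 0 were lower and 0 higher over 6 libraries (median log2 fold change 0.09), and without control replicate 2, 2 were higher and 0 lower (5.27 and 5.2% of all genes; median -0.02). These 2, Wasf1 and Wasf3 of the WAVE complex for actin assembly, are named after their values were seen, as is Wasf2, which overlapped and went the other way (log2 fold change -0.29, and -0.23 without control replicate 2). Wasf3 was listed at 23.4, 16.2 and 20.9 FPKM in the controls and at 23.9, 26.7 and 26.0 FPKM in SMA, with no overlap. Marcks, Rac1 and the kinase gene Fyn led the list, and Fyn was listed at 82.9, 64.2 and 93.4 FPKM in the controls and at 80.3, 83.1 and 81.6 FPKM in SMA. Its groups overlapped.

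Of 18 chromosomal neighbours, 0 were lower and 0 higher over 6 libraries, and 0 of the 16 tested without control replicate 2, with median log2 fold changes of 0.05 and -0.01. Rell2, Hdac3 and Slc35a4 were the most abundant, and Hdac3 was listed at 38.3, 31.3 and 42.9 FPKM in the controls and at 41.9, 37.8 and 39.6 FPKM in SMA, with overlap. Taf7, which lies between the beta and gamma families within the shared span, was listed at 5.002, 5.28 and 5.18 FPKM in the controls and at 4.52, 4.51 and 4.85 FPKM in SMA. All SMA libraries were thus below all control libraries, and control replicate 2 was the highest. Over 6 libraries SMA was all below for 2 of the 18 neighbours, Taf7 and Cd14, and all above for 0 (6.67 and 10.3% of all genes). Both are named after their values were seen.

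Marker lists of cell types were counted too, with 0 genes at an adjusted p under 0.05 over 6 libraries. Of the 8 vascular and fibroblast markers, 3 were lower at an unadjusted p under 0.05 and 0 higher, with and without control replicate 2 (2.39 and 5.2% of all genes were lower). These 3, Cldn5, Pecam1 and Rgs5, are named after their values were seen, and were lower in each SMA library than in any control. Less of the protein of Pecam1 in SMA cord has been reported, which is the direction seen here. Less Col3a1 staining has been reported too, and Col3a1 averaged 50.3 FPKM in control and 25.5 FPKM in SMA. SMA replicate 1 (53.2 FPKM) lay within the control range of Col3a1, however. Neither gene was chosen beforehand as a check of the labels. The sum of the list was 164, 192 and 156 FPKM in the controls and 158, 83.6 and 57.7 FPKM in SMA, led by Col3a1. Of the 8 astrocyte markers, led by Fabp7, 0 were lower and 1 higher, and without control replicate 2, 2 were lower and 1 higher, with sums of 1426, 1002 and 1351 FPKM in control and 1221, 1277 and 1209 FPKM in SMA. The 12 oligodendrocyte lineage markers, led by Mbp, had 0 lower and 0 higher, and 3 lower without control replicate 2, with sums of 1016, 943 and 1426 FPKM in control and 848, 1005 and 1034 FPKM in SMA. The vascular and fibroblast sum, in which Col3a1 overlapped between the labels, was lower in SMA replicates 2 and 3 than in any other library, while SMA replicate 1 lay within the control range. Their part in the member values was not tested.

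Of the 12 neuron markers, led by Meg3, 0 were lower and 0 higher over 6 libraries and 2 were higher without control replicate 2 (5.27% of all genes), and the median log2 fold change was 0.28, and 0.07 without control replicate 2. Microglia markers (8, led by P2ry12) had 0 lower and 0 higher in both comparisons and summed to 72.0, 107 and 68.2 FPKM in control and 74.0, 76.9 and 68.1 FPKM in SMA. Skeletal muscle markers, led by Acta1, summed to 2.27 to 7.95 FPKM, with 0 of the 4 tested lower or higher over 6 libraries and 0 of the 3 tested without control replicate 2, Myog was at 0 in all libraries but control replicate 2, and Mylpf was at 0 in control replicate 3. Of the 12 hepatocyte markers 0 were lower or higher over 6 libraries, and 0 of the 10 tested without control replicate 2. Of the 8 erythroid markers 0 were lower or higher over 6 libraries, and 1 of the 7 tested without control replicate 2 was lower (5.2% of all genes).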

How the data were processed

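The authors deposited FPKM per gene for each of 6 libraries, computed with Cufflinks after HISAT2 alignment to mm10, per the labels. Versions and annotation are not given in the sources used here. Genes absent from a library were set to 0. SMA and control were compared with limma 3.58.1 (R 4.3.3, lmFit, eBayes with trend, two-sided, no covariate) on log2(FPKM + 1). Genes with a mean FPKM of 0.5 or more were tested, with Benjamini-Hochberg adjustment over all genes tested. The procedure was tested on simulated data with the spread of the SMA libraries alone. That simulation does not hold the spread of control replicate 2. Single genes were also given an exact two-sided permutation test over libraries, and sums and figures were made with Python 3.11.15, pandas 2.3.3 and matplotlib 3.10.9. No test was made over the members as a set. Named were Smn1, the C-type members, the 3 highest members by mean in alpha, beta, gamma A and gamma B, members with an unadjusted p under 0.05, and up to 3 genes per list by mean. The members and lists were chosen with earlier results of these data known. Alternatives were other pseudocounts, filters and scalings, a replicate block, robust eBayes and leaving out each library; scaling to neuron markers, median ratio scaling without control replicate 2, leaving out libraries from the family sums (also per neuron marker FPKM) and the coding neuron markers as a scale were chosen after seeing the data. Depth in reads is unknown, which leaves counting error unquantified.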

Additional observations from a re-analysis of the deposited data

How the results depend on the processing

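The number of members higher in SMA at an unadjusted p under 0.05 was 7 (3.4% of all genes) and was also 7 with pseudocounts of 0.1 and 0.01, a minimum mean of 1 FPKM, median ratio scaling and robust eBayes (3.09 to 3.4%). It was 4 with no filter on low FPKM (3.45%), 2 after rescaling to the same total FPKM (1.98%), 4 after quantile normalization (3.88%), 5 with median ratio scaling of the 5 libraries other than control replicate 2 (5.06%), and 0 when scaled to the neuron markers (0.495%). Leaving out each library in turn gave 0 (without SMA replicate 3, 1.25%) to 12 (without control replicate 3, 6.07%), with 5 without control replicate 2 (5.27%). No member was lower under any of these settings. The number with all SMA libraries below control was 0 (6.67% of all genes), 2 when scaled to the neuron markers (14.6%), 3 with the 5-library median ratio scaling (14.3%), and 0 to 3 when libraries were left out (8.74 to 13.9%). The number with all SMA libraries above control was 14 (10.3%), 8 at the same total FPKM (7.03%) and 4 when scaled to the neuron markers (1.96%). When libraries were left out it was 14 to 24 (13.5 to 21.6%). Leaving out a library cannot undo a separation of the labels. The counts of members above and below could therefore only stay or rise there. The median log2 fold change of the members was 0.046 when scaled to the neuron markers, and between 0.10 and 0.32 when libraries were left out. The cause of these shifts was not tested.

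With the replicate number as a block, 4 members were higher (2.08% of all genes). Libraries of the same number did not deviate together (r = -0.037, 0.016 and 0.077 for numbers 1 to 3), so the numbers give no pairing.

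Log2 fold changes turned below 0 for some members. Scaled to the neuron markers, which moved the median of all genes to -0.149, 19 of 58 members were below 0, and among those named the values were -0.027 for Pcdha4, -0.07 for Pcdhgb5, -0.049 for Pcdhga9, -0.10 for Pcdhgb6 and -0.20 for Pcdhgc3. With median ratio scaling Pcdhgc3 was at -0.033, and with quantile normalization at -0.022. With the 5-library median ratio scaling they were -0.023 for Pcdhb17, -0.004 for Pcdhgb5, -0.095 for Pcdhgb6, -0.089 for Pcdhgc3, -0.038 for Pcdhgc4 and -0.07 for Pcdhgc5. When libraries were left out in turn, they ranged from -0.021 to 0.39 for Pcdhb17, from -0.001 to 0.23 for Pcdhgb5, from -0.092 to 0.22 for Pcdhgb6, from -0.086 to 0.11 for Pcdhgc3 (-0.038 without SMA replicate 1), from -0.035 to 0.50 for Pcdhgc4 and from -0.067 to 0.71 for Pcdhgc5. The lowest of each came without control replicate 2. Of the other named values under the alternatives, 324 kept direction and side of the threshold, 44 lost the threshold and 3 gained it. The ratios of family sums stayed above 1 with the same total, median ratio and quantile scalings and with libraries left out. The lowest was 1.004 for gamma without control replicate 2. Per 100 FPKM of neuron markers, the gamma mean of SMA (6.57 FPKM) was below that of control (6.68 FPKM). It was above control replicates 2 and 3 (6.25 and 6.40 FPKM). Relative to the coding neuron markers the gamma mean of SMA was also lower, and the beta mean slightly so (4.81 against 4.82 FPKM). For beta this direction turned without control replicate 2 (control mean 4.43 FPKM).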
